A study of Mus musculus with 6106 samples.

Results

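The step from low to intermediate reporter fluorescence was examined in splenic regulatory T cells (Tregs), by setting the GFPmed bin against the GFPlow bin of an Nr4a1-GFP sort. Members were all cells whose column carries the medium or low bin in its label and that held at least 500 unique molecular identifiers (UMIs, tags that mark single captured transcripts). This gave 3660 of the 5435 cells that met the minimum in the series, of which 1537 were GFPmed and the rest GFPlow, and a GFPhigh bin holds the others. All bins came from spleens of male B6 mice aged 10 months that carry an Nr4a1-Gfp reporter and Foxp3-Ires-Thy1.1, a Thy1.1 surface tag expressed with Foxp3. Live cells (DAPI negative) positive for TCRb, CD4 and Thy1.1 were sorted into GFPlow, the 0 to 20 percent range of GFP, and GFPmed, the 40 to 60 percent range. No cell received a treatment that the labels name, and the comparison asks how the transcriptome differs between the lowest and the middle reporter range. The number of mice behind each library is not given in the sources used here, and it is not known from them if transcripts of the transgenes were counted as Nr4a1 or Thy1.

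Tregs are CD4 T cells that restrain other immune cells and depend on the transcription factor Foxp3. Nr4a1 encodes the orphan nuclear receptor Nur77, a fast transcriptional response to signals of the T cell receptor (TCR), and the reporter is used to read those signals. Splenic Tregs are commonly divided into a resting or central kind, which recirculates through lymphoid organs, and an effector kind, which carries homing receptors, integrins and genes of tissue residence.

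Each bin was 1 droplet (inDrops) library, so no test between bins was possible, and cells of a library are not replicates. Brackets give exact 95% intervals for counting error only, which leave out variation between mice and libraries. The GFPmed cells held 2512277 UMIs and the GFPlow cells 2435870. GFPmed cells were deeper, with a mean of 1634.5 UMIs per cell against 1147.4, and their medians were 1.42 times as high for UMIs and 1.23 times as high for genes. After every cell was thinned at random to 500 UMIs, the mean was 336.8 genes per cell in GFPmed and 343.6 in GFPlow. Levels were scaled to 1000000 UMIs of a bin (UPM). A count of 0 was taken to allow up to 3 UMIs, or 1.19 UPM in GFPmed and 1.23 in GFPlow. The bins shared 26 cell barcodes, which mark 52 cells. Cells with at least 2 UMIs of 28 genes that mark other lineages (B and plasma cells, myeloid cells, CD8 T and NK cells, red cell precursors, platelets) made up 4.10% of GFPmed (63 cells) and 2.12% of GFPlow (45 cells), and they are called other-lineage cells below.

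The Treg label was met in each bin. Foxp3 was counted at 317 UPM in GFPmed and 390 UPM in GFPlow. Cd4 stood at 384 and 558 UPM, Cd3e, a chain of the TCR complex, at 218.1 and 227, and Il2ra, the high-affinity subunit of the interleukin 2 receptor, at 380 and 317. Ikzf2, which encodes the Treg factor Helios, stood at 508 and 506 UPM, and Ctla4, an inhibitory receptor, at 91.9 and 107.97. The log2 ratio of GFPmed over GFPlow was -0.30 [-0.43, -0.16] for Foxp3 and -0.54 [-0.66, -0.42] for Cd4. It was 0.01 [-0.11, 0.12] for Ikzf2.

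Of 7767 genes with at least 50 UMIs in the 2 bins, few were far from level. A gene is called higher or lower here when its ratio passed 1.5-fold, with no test behind the call. In GFPmed 331 genes (4.26%) were higher and 428 (5.51%) lower, and 58 (0.747%) and 76 (0.978%) passed 2-fold. The median log2 ratio of all measured genes was -0.04. Calls were most frequent among sparse genes, with 10.1% higher and 10.3% lower at 50 to 99 UMIs against 0.870% higher and 2.01% lower at 500 UMIs or more. The counts of called members below stand against these shares of all genes. Of 67 named genes past 1.5-fold, 33 passed it under every alternative run for them. Ribosomal protein transcripts took 30.03% of the UMIs of GFPmed and 26.14% of GFPlow, and the split of calls depends on that. With totals taken without ribosomal protein genes 466 genes were higher and 3.79% of genes lower, and with scaling by the median ratio 442 were higher and 3.93% lower, so that higher calls outnumbered lower ones under both. These scalings moved every log2 ratio up by 0.08 and 0.07. Without the cells of shared barcodes 340 genes were higher and 436 lower, and without other-lineage cells 3.79% of genes were higher and 5.83% lower.

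**Figure D1:**
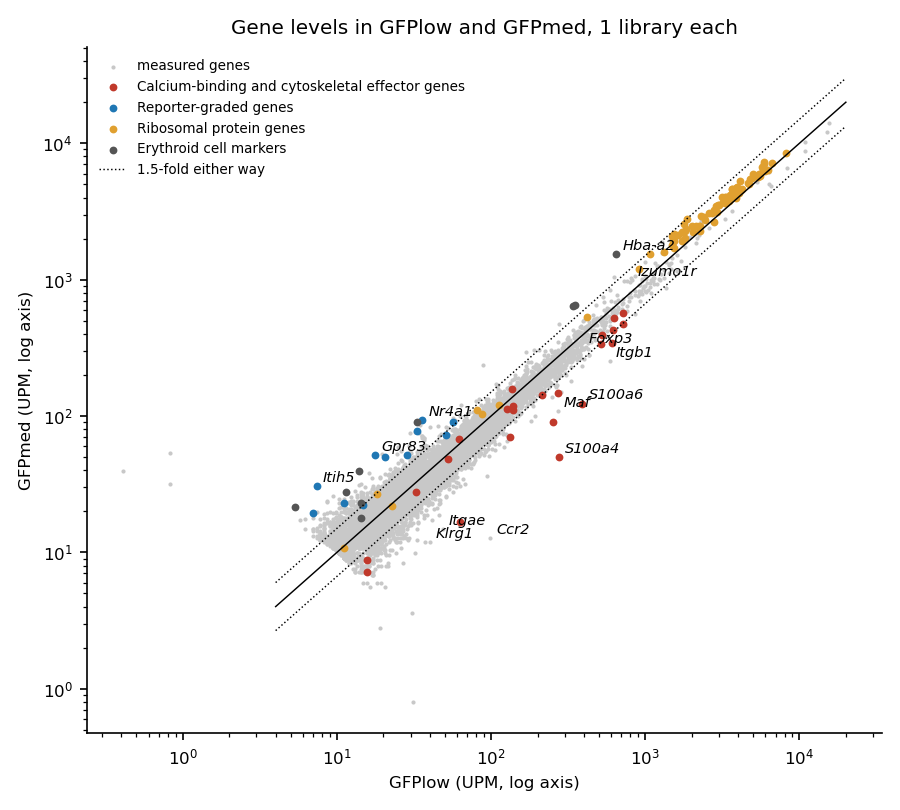
Level of each measured gene with a UMI in both bins, in GFPlow (horizontal) and GFPmed (vertical), in UPM on log axes, with 1.5-fold either way as dotted lines. The calcium-binding and cytoskeletal genes (red) lie on or below the diagonal except for 2, the ribosomal protein genes (orange) lie mostly just above it, and Gpr83, Itih5 and Nr4a1 lie above while Ccr2, S100a4, Klrg1 and Itgae lie below.

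Gpr83, a G protein-coupled receptor gene that Tregs express, had the highest ratio of the 5610 genes ranked. It gave 130 UMIs in GFPmed and 43 UMIs in 40 GFPlow cells, or 51.7 against 17.7 UPM, a log2 ratio of 1.54 [1.04, 2.08] or 2.91-fold. Itih5, which encodes a heavy chain of the inter-alpha-trypsin inhibitor family of matrix proteins, gave 77 UMIs against 18, or 30.6 against 7.39 UPM. Its log2 ratio was 2.02 [1.30, 2.88], larger than that of Gpr83, but its 95 UMIs fell short of the 100 that ranking required. Of the GFPmed UMIs, 0 for Gpr83 and 2 for Itih5 lay in other-lineage cells. After thinning to 500 UMIs the log2 ratios were 1.55 [0.77, 2.41] and 2.26 [0.99, 3.93]. These 2 genes mark the upper side of the step, so the 250 bases before the start sites listed for them in the RefSeq promoter table on GRCm38.p6 are given, with each CG dinucleotide in capitals. CG reads the same on both strands, and the median over 32851 such windows is 6. The Gpr83 window (chr9:14859960-14860209, plus strand) holds 18 CG, and 21.7% of all windows hold at least as many. The Itih5 window (chr2:10153293-10153542, plus strand) holds 7 CG, which 46.3% of windows reach. Of the transcript starts in the GENCODE M21 annotation, 1 was matched to the Gpr83 window and 0 to the Itih5 window. GENCODE begins Itih5 at position 10153571.
Gpr83: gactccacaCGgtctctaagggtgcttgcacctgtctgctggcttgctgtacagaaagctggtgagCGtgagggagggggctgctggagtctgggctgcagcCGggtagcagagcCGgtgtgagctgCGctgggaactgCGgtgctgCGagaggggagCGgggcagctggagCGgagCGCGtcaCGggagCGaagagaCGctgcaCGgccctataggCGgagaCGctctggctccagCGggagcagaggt
Itih5: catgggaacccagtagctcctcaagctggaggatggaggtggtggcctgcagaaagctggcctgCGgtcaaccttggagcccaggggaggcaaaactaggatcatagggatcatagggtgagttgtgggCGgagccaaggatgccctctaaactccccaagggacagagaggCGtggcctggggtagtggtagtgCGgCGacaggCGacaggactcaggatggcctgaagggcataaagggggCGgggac

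Nr4a1, the gene of the reporter used for the sort, stood at 92.7 against 35.7 UPM, a log2 ratio of 1.37, and 22 of its UMIs in GFPmed and 10 in GFPlow lay in other-lineage cells. Among 14 measured members of a list of NR4A, EGR and related early response factors, 3 were higher and 1 was lower, with a median log2 ratio of 0.26. The shares were 4.26% and 5.51% over all genes, and 10.1% and 10.3% over genes with 50 to 99 UMIs. The higher ones were Nr4a1, Nfkbid, a regulator of NF-kappa-B (41.8 against 26.7 UPM), and Bcl6, a transcriptional repressor with 35 against 20 UMIs. The lower one was Irf4, a factor of effector differentiation, with 26 against 54 UMIs. Bcl6 and Irf4 were named after their values were seen. Myc, a growth regulator, stood at 152.05 against 114.5 UPM, a log2 ratio of 0.41 [0.18, 0.64] that did not pass 1.5-fold. Egr1, an immediate early factor, stood at 46.6 against 42.7 UPM, with an interval of its log2 ratio from -0.27 to 0.52.

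Receptors and feedback genes that TCR signals induce had few calls, and these lay on both sides. Of 26 measured members 3 were higher and 2 were lower, against 4.26% and 5.51% of all genes, and the median log2 ratio was 0.10. Tnfrsf9, which encodes the costimulatory protein 4-1BB, was counted at 49.8 against 20.5 UPM, a log2 ratio of 1.27 [0.79, 1.78]. Pdcd1, the inhibitory receptor PD-1, gave 58 against 27 UMIs (named after its value was seen), and Tnfrsf4, the receptor OX40, stood at 166.8 against 109.6 UPM. The lower ones were Icos, a costimulatory receptor, at 138.5 against 246.3 UPM, and Slamf6, a homotypic lymphocyte receptor, at 64.5 against 99.8 UPM. The call of Slamf6 was lost in cells with at least 1000 UMIs (log2 ratio -0.41) and that of Tnfrsf4 after thinning (0.39). Tnfrsf9 and Icos, both costimulatory receptors, lay on opposite sides, with log2 ratios of 1.27 and -0.83 [-1.03, -0.64]. Immediate early and heat shock genes showed no call in either direction among 19 measured members, with log2 ratios from -0.48 to 0.27.

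A list of genes that grade with the reporter had 10 of 11 measured members higher, 0 lower and a median log2 ratio of 1.23. That list was taken from an earlier analysis of these libraries, so its direction is not independent evidence. Chchd10, which encodes a mitochondrial intermembrane protein, gave 196 UMIs in GFPmed against 81 in GFPlow, or 78.02 against 33.3 UPM, a log2 ratio of 1.23 [0.85, 1.62]. Lrat, an enzyme that esterifies retinol, stood at 90.8 against 56.2 UPM. Gsto1, a glutathione transferase, stood at 51.7 against 28.3 UPM. Cd81, a tetraspanin, was the member that missed 1.5-fold, at 72.05 against 51.3 UPM.

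Among the other genes of highest ratio, Ecm1, a secreted matrix protein, stood at 38.2 against 16.0 UPM (log2 ratio 1.24 [0.70, 1.83]). Atpif1, the inhibitor of mitochondrial ATP synthase, stood at 59.3 against 25.0 UPM, but 34.2% of its GFPmed UMIs lay in other-lineage cells. Nup188, a nuclear pore subunit, gave 78 against 34 UMIs, and Knop1, a nucleolar protein, 80 against 35. The ratio of Knop1 fell to 0.36 [-0.85, 1.56] on the log2 scale after thinning, where it rested on 13 and 14 UMIs. Replication-dependent histone genes filled 7 of the 15 highest places. Of the UMIs of Hist1h2ah, a histone H2A gene, 100 of 190 in GFPmed and 33 of 72 in GFPlow lay in other-lineage cells, and after thinning its log2 ratio was -0.10. These histone genes are near-identical copies among which reads may be split, and their ratios are uncertain.

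Treg identity genes had calls on both sides. Of 24 measured members 4 were higher and 1 was lower, against 4.26% and 5.51% of all genes, with 14 above and 10 below a log2 ratio of 0 and a median of 0.11. The higher ones were Gpr83, Tnfrsf4, Lrrc32, which presents latent TGF-beta on the Treg surface (81.997 against 52.1 UPM), and Ebi3, a subunit of the cytokine interleukin 35 (49 against 21 UMIs, named after its value was seen). Il2rb, a signalling subunit of the interleukin 2 receptor, came next, at 303.3 against 204.4 UPM and a log2 ratio of 0.57 [0.40, 0.73]. Izumo1r, the folate receptor 4 of Tregs, stood at 997 against 818 UPM. The lower one was Itgae. Suppressive molecules were split, with 4 of 12 measured members higher and 3 lower, against 4.26% and 5.51% of all genes. Tnfrsf9, Ebi3, Lrrc32 and Tgfb1 (38 against 20 UMIs) were on the upper side, and Gzmb, Fgl2 and Lgals1 on the lower. Ebi3, Tgfb1 and Gzmb had 50 to 99 UMIs, a range where 10.1% of genes were higher and 10.3% lower. Tgfb1 and Gzmb were named after their values were seen.

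Among chemokine receptors and egress genes, 5 of 10 measured members were lower (Ccr2, Ccr4, Cxcr3, Cxcr5 and Cxcr4) and 0 were higher, against 5.51% and 4.26% of all genes, with a median log2 ratio of -0.52. The other 5 did not pass 1.5-fold, and 2 of them, Ccr7 and Cx3cr1, lay above 0. Ccr2, a receptor for monocyte chemoattractant proteins, had the lowest ratio of all ranked genes. It gave 32 UMIs in 20 GFPmed cells against 241 UMIs in GFPlow, 12.7 against 98.9 UPM, a log2 ratio of -2.94 [-3.54, -2.42] or 7.66-fold lower. Of the 32 UMIs of GFPmed, 13 lay in other-lineage cells. After thinning the log2 ratio was -2.57 [-3.62, -1.75]. Ccr4, a receptor of skin-homing cells, gave 25 against 78 UMIs, and Cxcr3, a receptor for interferon-induced chemokines, stood at 30.3 against 59.1 UPM. Ccr7, the lymph node homing receptor, was level at 260 against 253.3 UPM.

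Integrins and adhesion genes gave 0 higher and 4 lower of 18 measured members, against 4.26% and 5.51% of all genes, with a median log2 ratio of -0.23. Itgae, the CD103 integrin chain that binds epithelial cadherin, stood at 14.7 UPM in GFPmed, where it gave 37 UMIs, against 48.4 in GFPlow, a log2 ratio of -1.70 [-2.29, -1.17]. Itgb1, the integrin beta 1 chain, stood at 252.8 against 587 UPM, Itgav, the integrin alpha V chain, at 33.04 against 59.1 UPM, and Cd44, a receptor for hyaluronan, at 65.3 against 126 UPM.

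The calcium-binding and cytoskeletal genes of effector cells formed the list with the most calls downward. Of 23 measured members 12 were lower, against 5.51% of all genes, and 0 were higher, with a median log2 ratio of -0.59. S100a4, a calcium-binding protein of motile cells, was found in 47 GFPmed cells and 252 GFPlow cells, at 49.8 against 274.2 UPM, a log2 ratio of -2.46 [-2.75, -2.18]. S100a6, its relative, stood at 123.4 against 391 UPM. Ahnak, a large scaffold protein under the cell membrane, stood at 90.4 against 253.3 UPM, and Myo1f, a class I myosin, at 16.7 against 63.2 UPM. Lower calls also covered Vim, the intermediate filament vimentin, at 336 against 514 UPM, while Anxa2, an annexin, was counted with 70 against 79 UMIs. S100a4 and Myo1f are the members of lowest ratio, and their windows are shown in the same form. The S100a4 window (chr3:90603520-90603769, plus strand) holds 2 CG, which 81.2% of all windows reach, and the Myo1f window (chr17:33555457-33555706, plus strand) holds 4, which 62.2% reach. Of the GENCODE M21 transcript starts, 1 was matched to the Myo1f window and 0 to the S100a4 window. GENCODE begins S100a4 at position 90603771.
S100a4: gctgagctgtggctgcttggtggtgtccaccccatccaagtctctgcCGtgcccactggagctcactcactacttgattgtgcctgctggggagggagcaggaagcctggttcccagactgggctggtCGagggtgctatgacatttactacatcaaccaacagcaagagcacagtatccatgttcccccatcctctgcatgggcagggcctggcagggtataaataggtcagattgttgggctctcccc
Myo1f: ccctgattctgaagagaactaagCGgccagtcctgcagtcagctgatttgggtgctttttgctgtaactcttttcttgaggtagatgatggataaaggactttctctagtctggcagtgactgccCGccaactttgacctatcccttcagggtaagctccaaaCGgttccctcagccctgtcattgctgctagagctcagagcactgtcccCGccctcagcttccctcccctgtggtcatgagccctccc

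Killer cell receptors and cytotoxic genes had 1 of 10 measured members higher and 3 lower, against 4.26% and 5.51% of all genes and 10.1% and 10.3% of genes with 50 to 99 UMIs. Klrg1, an inhibitory receptor of terminally differentiated lymphocytes, gave 30 UMIs in 17 GFPmed cells against 97 in 50 GFPlow cells, 11.9 against 39.8 UPM, a log2 ratio of -1.72 [-2.38, -1.13]. Gzmb, which encodes granzyme B, gave 20 against 52 UMIs, and Serpinb9, which encodes an inhibitor of granzyme B, 45 against 89. The higher one was Gzma, granzyme A, with 99 UMIs against 1, of which 82 lay in other-lineage cells. Those 99 UMIs came from 9 cells, so they describe a handful of cells and not the bin.

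Cytokine receptors gave 0 higher and 5 lower of 24 measured members, against 4.26% and 5.51% of all genes, while the median log2 ratio was -0.11 and 11 members lay above 0. Il1rl1, the interleukin 33 receptor ST2, gave 30 against 91 UMIs, a log2 ratio of -1.63 [-2.29, -1.04]. Il18r1, a chain of the interleukin 18 receptor, stood at 30.6 against 62.4 UPM. Il7r, the interleukin 7 receptor of long-lived T cells, stood at 100.3 against 193.8 UPM, and Ifngr1, a chain of the interferon gamma receptor, at 180 against 331 UPM. The remaining one, Il12rb1, rested on 23 against 35 UMIs and was named after its value was seen. Il2rb, described above, had the highest ratio of this list.

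Transcription factors of effector Tregs gave 0 higher and 6 lower of 13 measured members, against 4.26% and 5.51% of all genes, with a median log2 ratio of -0.54. Maf, a factor of interleukin 10 producing cells, stood at 107.9 UPM in GFPmed against 270 in GFPlow, a log2 ratio of -1.32 [-1.53, -1.12]. Id2, an inhibitor of helix-loop-helix factors, stood at 36.2 against 94.4 UPM, Prdm1, the repressor Blimp-1, at 17.1 against 41.5 UPM, and Ikzf3, the factor Aiolos, at 22.7 against 41.1 UPM. The call of Ikzf3 was lost in cells with at least 1000 UMIs, at a log2 ratio of -0.46. Ahr and Irf4 made up the 6 and gave 20 against 47 and 26 against 54 UMIs. Both had 50 to 99 UMIs, a range where 10.3% of genes were lower. Gata3, a factor shared by type 2 and effector Treg cells, stood at 200.6 against 283 UPM and did not pass 1.5-fold. Batf, an AP-1 family factor, was counted with 75 and 71 UMIs. Fgl2, a secreted suppressive molecule, and Osbpl3, a member of the oxysterol-binding family, completed the 15 lowest genes, at 18.7 against 45.98 and 12.3 against 28.7 UPM.

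**Figure D2:**
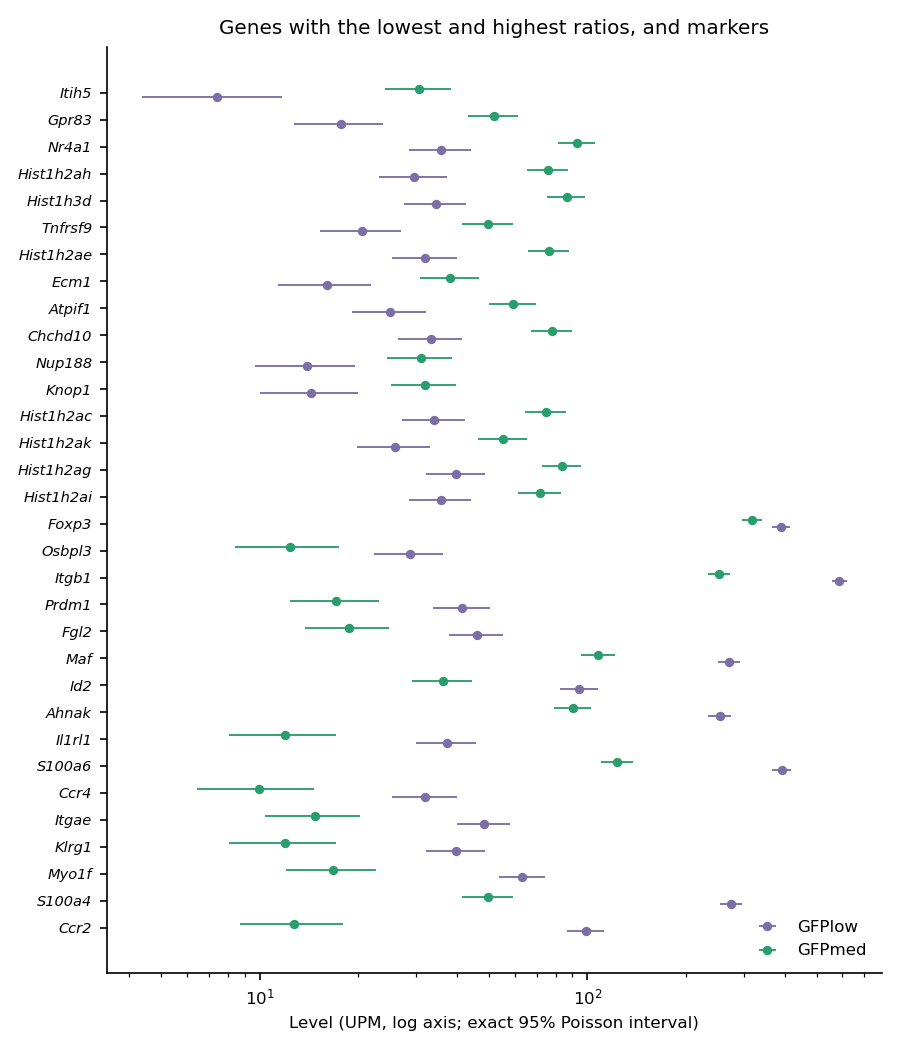
Levels in UPM (log axis) with exact 95% Poisson intervals in GFPlow (purple) and GFPmed (green) for the 15 genes of highest and the 15 of lowest ratio, with Itih5 and Foxp3 added. The intervals of the bins stand apart for every gene drawn, and Ccr2 and S100a4 at the bottom show the widest gaps, at 12.7 against 98.9 and 49.8 against 274.2 UPM.

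Genes of resting and central Tregs had calls near the shares of all genes. Of 30 measured members 0 were higher and 2 were lower, against 4.26% and 5.51% of all genes, with a median log2 ratio of -0.06. Lef1, a factor of resting T cells, was the highest of those named, at 37.4 against 25.5 UPM, a log2 ratio of 0.55 [0.08, 1.04]. Tcf7, its relative TCF-1, stood at 227 against 260 UPM, and Igfbp4, a secreted binding protein, at 456 against 431. The lower ones were Il7r and Axin2, a target of Wnt signalling, the latter at 25.9 against 51.3 UPM. In cells with 1000 to 2000 UMIs the log2 ratio of Axin2 was -0.19, within 1.5-fold. TCR complex and proximal signalling genes had 1 lower call, Pag1, an adaptor of membrane rafts (51.0 against 96.5 UPM), among 27. Thy1 stood at 1150 against 1616 UPM, a log2 ratio of -0.49 [-0.56, -0.42].

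Few members of the housekeeping groups passed 1.5-fold, but the ribosomal protein genes were shifted together. Of 85 measured ribosomal protein genes 82 had a log2 ratio above 0 and 0 passed 1.5-fold, with a median of 0.22, while the median of 37 translation factors was 0.03. The intervals of 77 ribosomal protein genes lay wholly above 0 and that of 1 below. Over all 7767 measured genes, 667 intervals lay above 0 and 1184 below. With totals taken without ribosomal protein genes both medians would move up by 0.08. Oxidative phosphorylation gave 1 higher call of 72 (Cox7b, a subunit of cytochrome c oxidase, 170 against 110 UPM) and a median of 0.08. Glycolysis gave 0 calls of 16 and a median of -0.12. Interferon-stimulated genes gave 1 higher and 2 lower of 38, which were Isg15, a ubiquitin-like modifier (54.1 against 32.8 UPM), and the guanylate-binding proteins Gbp2 and Gbp3 (167.6 against 259.05 and 57.3 against 101 UPM). MHC class I genes gave 1 higher call of 19, H2-Q4, while H2-K1, a classical class I heavy chain, stood at 4872 against 6527 UPM. Cell cycle genes gave 4 higher calls of 30 (Top2a, Rrm1, Mcm5 and Rrm2), against 4.26% of all genes. None of these 4 calls held in cells with 1000 to 2000 UMIs, where the log2 ratios were -0.69, -0.0205, 0.23 and -3.34, and that of Rrm1 was -0.061 after thinning. Of the 95 Top2a UMIs in GFPmed 51 lay in other-lineage cells, as did 75 of the 98 Rrm2 UMIs, and without those cells the Rrm2 ratio was -0.71 on the log2 scale.

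**Figure D3:**
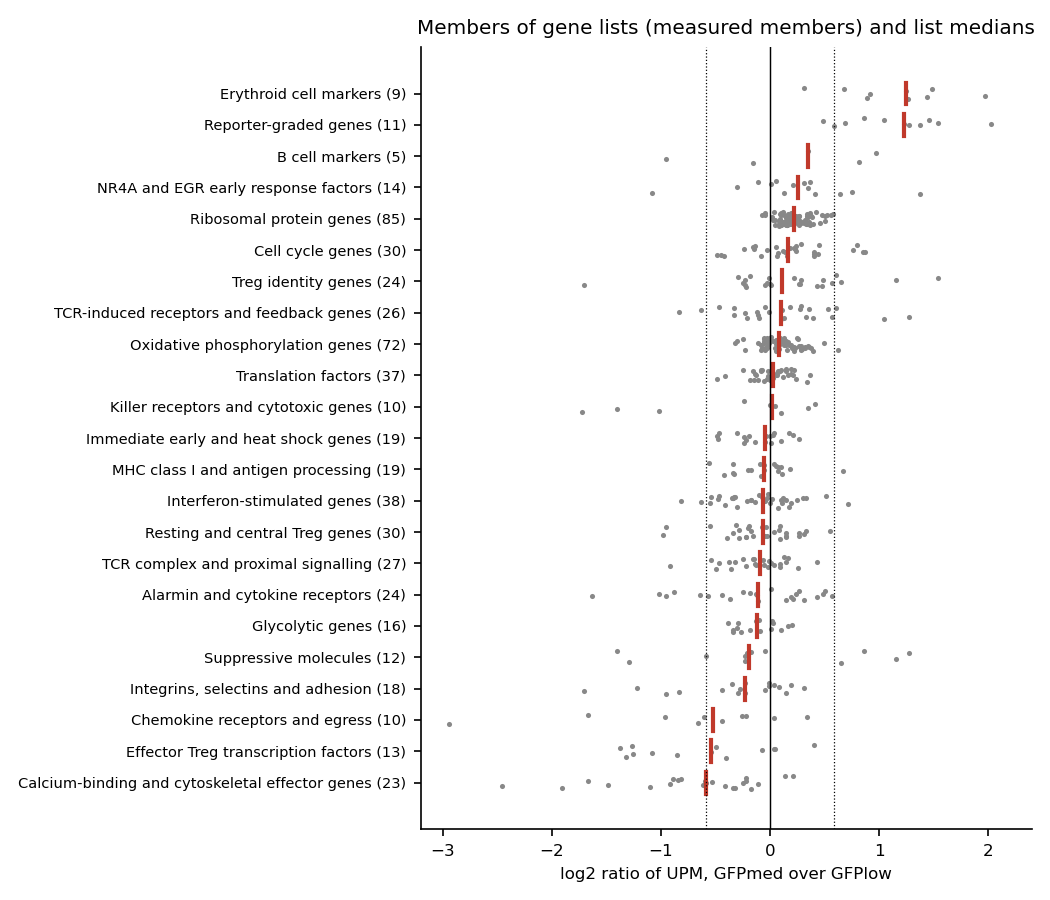
Log2 ratios of GFPmed over GFPlow for the measured members (grey points) of each list with at least 5 of them, whose number is in parentheses, with list medians (red bars) and 1.5-fold as dotted lines; points beyond the horizontal axis limits (Gzma) are not drawn. The lists of calcium-binding and cytoskeletal genes, effector transcription factors and chemokine receptors sit lowest, at medians of -0.59, -0.54 and -0.52.

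Markers of red cell precursors moved with the bins too. Of 9 measured erythroid markers 8 were higher in GFPmed, with a summed level of 3058 against 1433 UPM over the list and a median log2 ratio of 1.25. That direction depended on the cells counted, since the median was 0.38 after thinning and -3.43 over 3 measured markers in cells with 1000 to 2000 UMIs. Hba-a2, an alpha globin gene, stood at 1534 against 645 UPM, and 3833 of its 3854 GFPmed UMIs lay in other-lineage cells. In cells with 1000 to 2000 UMIs its log2 ratio was -1.74. Myeloid markers summed to 534 against 371 UPM, with Lyz1, a lysozyme gene, at 53.7 UPM against 0.821. The GFPmed UMIs of Lyz1 came from 6 cells, 97.8% of them lay in other-lineage cells, and 1 cell held 67.2% of its UMIs in both bins. B cell markers summed to 131.75 against 111.25 UPM. No plasma cell or platelet marker was measured, and 4 of 7 platelet markers were at 0 in both bins. Cells with at least 10 UMIs of B cell or erythroid genes, a rule set after the data were seen, numbered 16 in GFPmed and 8 in GFPlow. They held 2.18% and 0.688% of the UMIs and included the deepest pair of GFPmed cells, with 15387 and 12670 UMIs. Among the genes named by rule that were lower in GFPmed, all but Jchain, an immunoglobulin chain of plasma cells, kept their direction without other-lineage cells. Over all named genes, 84 ratios stayed within counting error without these cells, 14 moved and 3 that had passed 1.5-fold changed sign.

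Shares of cells with a UMI were compared at equal depth, in the 1474 GFPmed and 2078 GFPlow cells that were not other-lineage cells. Gpr83 was found in 2.78% of GFPmed cells [2.003, 3.75] and 0.962% of GFPlow cells [0.589, 1.48] after thinning to 500 UMIs, and in 7.26% and 1.92% without thinning. Ccr2 was found in 0.611% [0.280, 1.16] and 3.32% [2.59, 4.18] after thinning, and in 1.02% and 5.29% without. S100a4 was found in 1.83% and 8.28% after thinning and in 3.05% and 11.8% without. Maf was found in 5.02% and 10.6% after thinning and in 8.14% and 17.6% without. Klrg1 was found in 0.543% and 1.49% after thinning and in 0.950% and 2.26% without, and Itgae in 0.611% and 2.12% after and 1.70% and 3.99% without. For each of these 6 genes the intervals of the bins at equal depth did not overlap except for Klrg1, whose intervals were [0.235, 1.07] and [1.02, 2.11]. Of other genes counted in this way, Cd3e, Ccr7, Igfbp4, Chchd10, Gsto1 and Tnfrsf4 had intervals that overlapped. Those that did not overlap were Nr4a1, Foxp3, Itih5, Tnfrsf9, Izumo1r, Il2rb, Ephx1, Il7r, Icos, Id2, Itgb1, S100a6 and Ahnak. The share of all genes without overlap was not taken. The 24 B or erythroid cells had a median of 1669.5 UMIs, against 1538.5 in GFPmed and 1083 in GFPlow. None of the 6 genes was found in them after thinning. Without thinning S100a4 was found in 1 of them (4.17%), against 3.05% of GFPmed and 11.8% of GFPlow cells. Whether this came from free RNA was not tested. Gpr83, Ccr2, Maf, Klrg1 and Itgae were found in none of them without thinning. Since the interval for 0 of 24 cells reaches a share of 14.2%, a background from free RNA is not bounded below the shares above. Itgb1, found in 7.94% and 16.4% of the T cells after thinning and in 14.4% and 23.1% without, was found in 8.33% of the 24 cells, which were 2 cells, with an interval from 1.03% to 26.997% that spans the shares of both bins. Its shares are therefore not shown to be above that level. Without thinning Itgb1 was found in 29.2% of the 24 cells. In the 24 cells Chchd10 was found in 12.5% after thinning and 29.2% without. It was found in 3.05% and 9.91% of GFPmed cells and in 1.83% and 3.37% of GFPlow cells. Whether the 24 cells express Itgb1 or Chchd10 themselves was not tested.

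To see how effector transcripts were spread over cells, UMIs of 10 genes (S100a4, S100a6, S100a10, S100a11, Lgals1, Itgb1, Anxa2, Crip1, Vim and Ahnak) were counted in each cell thinned to 500 UMIs. At least 3 such UMIs, called past the effector gate, were found in 13.4% of the 1537 GFPmed cells [11.7, 15.2] and in 548 GFPlow cells, 25.8% [23.96, 27.7]. The gate counts transcripts already described as lower in GFPmed, so it shows their distribution and is no independent result. It is a range of a score and not a cell type, and 19.1% of GFPmed and 23.4% of GFPlow cells lay at 2 or 3 UMIs, next to the cut. Cells with 0 gate UMIs made up 45.3% of GFPmed and 34.7% of GFPlow. At 10 or more gate UMIs were 8 GFPmed cells (0.520%) and 73 GFPlow cells (3.44%). Past the gate, GFPmed cells also held fewer gate UMIs, with a mean of 4.44 against 5.72. Without thinning 45.7% of GFPmed and 48.8% of GFPlow cells had at least 3 gate UMIs, counted over cells of unequal depth. In GFPhigh 9.97% [8.62, 11.5] of cells were past the gate.

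**Figure D4:**
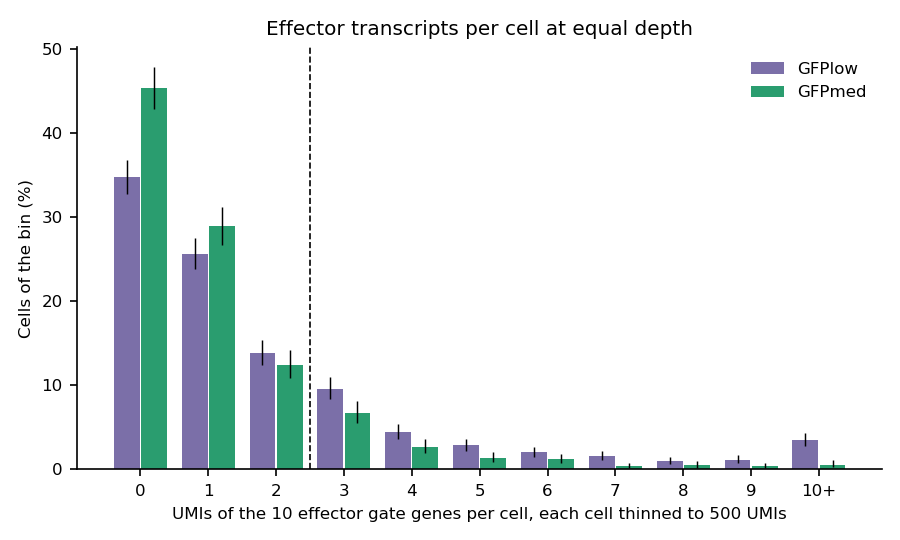
Share of cells (percent of the bin, bars from 0, with exact 95% binomial intervals) by the number of UMIs of the 10 gate genes per cell after thinning to 500 UMIs, in GFPlow (purple) and GFPmed (green), with the gate cut as a dashed line. GFPmed cells are more frequent at 0 UMIs (45.3% against 34.7%) and GFPlow cells at 10 or more (3.44% against 0.520%).

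In GFPlow several of the lower genes were found mostly in cells past the gate. These cells held 24.8% of all UMIs but 86.6% of the Klrg1, 82.2% of the Ccr2, 75.4% of the Itgae and 71.4% of the Il1rl1 UMIs. In GFPmed they held 12.8% of all UMIs and 53.3%, 46.9%, 56.8% and 36.7% of the UMIs of these genes. Other lower genes were near or under the share of all UMIs in GFPlow. There 16.2% of the Cxcr5, 24.7% of the Serpinb9, 25.0% of the Gbp2 and 25.5% of the Slamf6 UMIs lay past the gate. Of the Gpr83 UMIs 4.65% (2 of 43) lay past the gate in GFPlow. In GFPmed 10.0% of them (13 of 130) did, near the 12.8% of all UMIs there. Of the Itih5 UMIs 38.9% (7 of 18) lay past the gate in GFPlow and 3.90% (3 of 77) in GFPmed. None of these genes is among the 10 that define the gate.

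The bins were then compared on each side of the gate. Below it, where 7199 genes were measured, 4.58% were higher and 4.85% lower. Past it, where 3182 genes were measured in fewer cells, 6.07% were higher and 12.2% lower. Other-lineage cells held 7.47% of the UMIs past the gate in GFPmed and 2.63% in GFPlow, and Gzma (76 against 1 UMIs) and Cd79a, a B cell receptor chain (17 against 1), were counted there. Without other-lineage cells, an alternative chosen after seeing the data, 5.90% of genes past the gate were higher and 12.4% lower, and the log2 ratios past it were -3.36 for Ccr2, -0.88 for Maf and -0.68 for Foxp3. Ccr2 was lower on both sides, with 46.7 against 327.9 UPM past the gate (log2 ratio -2.77 [-3.68, -2.05]) and 7.76 against 23.5 UPM below it (-1.57 [-2.50, -0.76]). Maf was lower by 0.94 past and by 1.18 below the gate on the log2 scale, with intervals of [-1.31, -0.59] and [-1.44, -0.92]. Itgae had log2 ratios of -1.15 [-1.93, -0.47] past and -1.10 [-2.10, -0.19] below. Klrg1 had 16 against 84 UMIs past the gate, a log2 ratio of -1.45 [-2.35, -0.70]. Below the gate it had 14 against 13 UMIs and a log2 ratio of -0.16, with an interval from -1.35 to 1.06. Whether the ratio of any gene differed between the sides was not tested.

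Gpr83, Itih5 and Nr4a1 were higher below the gate as well. Gpr83 stood at 53.4 against 22.4 UPM there, a log2 ratio of 1.24 [0.73, 1.80], Itih5 gave 74 against 11, and Nr4a1 stood at 92.2 against 35.5 UPM, a log2 ratio of 1.37 [0.97, 1.80]. Past the gate Gpr83 gave 13 against 2 UMIs, Itih5 gave 3 against 7 and Nr4a1 gave 31 against 22, a log2 ratio of 1.40 [0.57, 2.26]. Foxp3 had a log2 ratio of -0.15 [-0.31, 0.00] below the gate and of -0.77 [-1.13, -0.43] past it. Il7r had log2 ratios of -0.80 [-1.07, -0.54] below and -0.90 [-1.40, -0.45] past. Of the effector transcription factors 4 of 11 measured members were lower below the gate, with 0 higher and a median log2 ratio of -0.44.

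**Figure D5:**
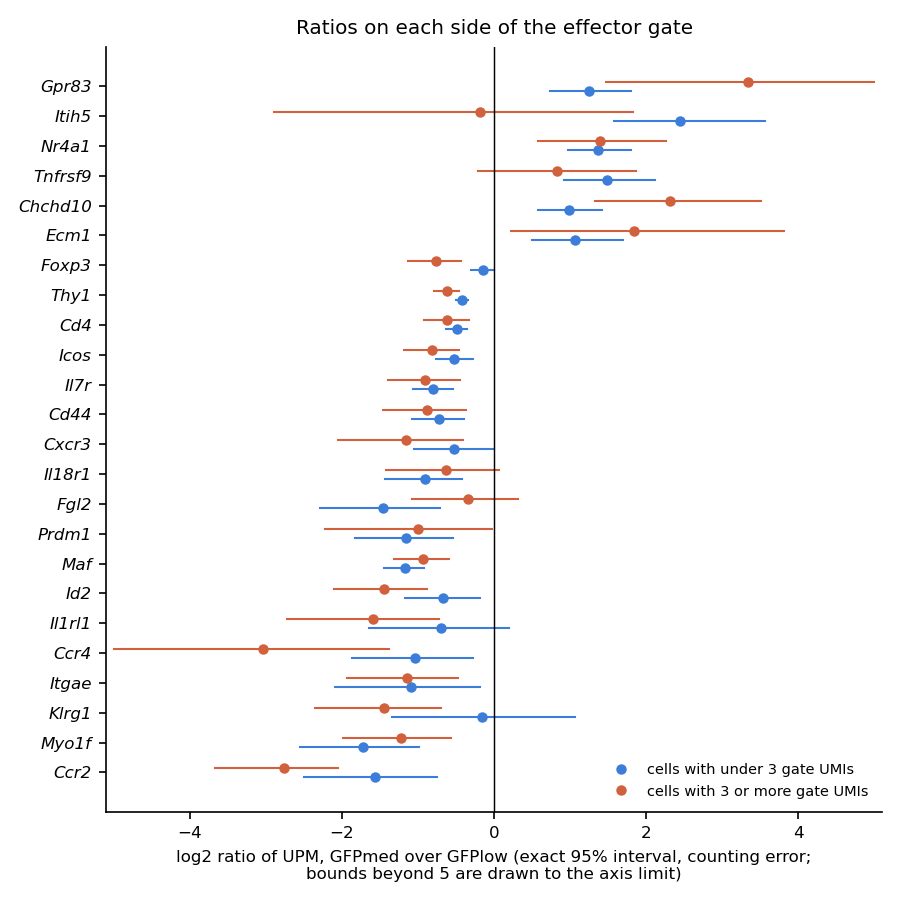
Log2 ratios of GFPmed over GFPlow with exact 95% intervals (counting error) for 24 genes outside the gate list, in cells below (blue) and past (orange) the effector gate; interval ends beyond the axis limits are drawn to the limit. Ccr2, Maf and Itgae lie below 0 on both sides, while the interval of Klrg1 below the gate, from -1.35 to 1.06, spans 0.

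The third bin places this step beside the level in GFPhigh for some of the named genes. In the order GFPlow, GFPmed and GFPhigh, Maf was at 270, 107.9 and 127.7 [113, 143.3] UPM and Ahnak at 253.3, 90.4 and 94.7 [82.5, 108.2]. Itgae (48.4, 14.7 and 17.6 [12.6, 23.99] UPM) and Ccr4 (32.02, 9.95 and 10.6 [6.77, 15.7]) followed the same order of levels. Klrg1 was at 39.8, 11.9 and 25.1 [19.015, 32.5] UPM and Id2 at 94.4, 36.2 and 63.4 [53.5, 74.7], so both were lowest in the middle bin. Ccr2 (98.9, 12.7 and 1.32 [0.272, 3.86]) and S100a4 (274.2, 49.8 and 25.99 [19.8, 33.5]) were lower again in GFPhigh. On the upper side Gpr83 was at 17.7, 51.7 and 91.6 [79.6, 104.95] UPM, whereas Ecm1 was at 16.0, 38.2 and 42.7 [34.6, 52.1] and Atpif1 at 25.0, 59.3 and 55.5 [46.2, 66.1]. Ratios between GFPmed and GFPhigh were not taken here, and no test was made, since each bin is 1 library.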

How the data were processed

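Single splenic Tregs were measured by inDrops, and each deposited sample is 1 cell. The deposited table gives UMI counts without normalization for every gene in every cell, and the authors sequenced the libraries on a NextSeq500, per the labels' protocols. TopHat2, SAMtools and the mm10 genome were used per the submitters' processing notes, while versions, annotation, counting program and UMI rule are not given in the sources used here. The counts summed to 98.6% of the UMIs in the labels. The table names 23725 genes by symbol, and 0 columns of values were left unmapped.

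Cells under 500 UMIs were left out (145 GFPmed, 249 GFPlow), and 0 doublets were removed. UMIs were summed per bin, and log2 ratios used a pseudocount of 0.5 UMI in both bins. Level intervals are exact Poisson, ratio intervals exact conditional binomial and share intervals Clopper-Pearson. Named genes were the 15 highest and 15 lowest ratios among genes with at least 100 UMIs in at least 20 cells and no cell holding over 20% of them, up to 4 members per list, the markers Nr4a1, Foxp3, Gpr83, Itih5, Ccr2, Klrg1 and Itgae, and, for each other cell type, its marker with the most UMIs. The ranking left out unnamed gene models, antigen receptor segments and mitochondrial and ribosomal protein genes. Failing only the single-cell condition were Hba-a2, Hbb-bs, Hbb-bt, Car2, Ccna2, Cd24a, Gzma, Lyz1, Rrm2 and Slc4a1, beside a gene that is not reported here. The members, lists and rules were chosen with earlier results of these data known. Genes close to the 50-UMI minimum pass it more readily through the bin where they are high, so counts over measured members are descriptions. Positions and promoter windows came from RefSeq tables (GRCm38.p6) and GENCODE M21. Since 77.3% of the measured genes matched a promoter window by symbol, no share of promoters with a motif was taken. Windows of Ccr2 and Ccr4 overlap annotated exons and are not printed, and Klrg1 and Itgae have none in the table. Python 3.11.15, numpy 2.4.6, scipy 1.17.1 and, for the TMM factor, edgeR 4.0.16 were used. The code was tested on simulated data. The alternatives were other cell, gene and depth limits, scalings, a pseudocount of 5 UMIs, cell weights, gate cuts and the removal of other-lineage cells, of shared barcodes and of the cell with the most UMIs of each gene.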

Additional observations from a re-analysis of the deposited data

How the results depend on the processing

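No paired analysis was possible because each bin holds 1 library with the number 1, and for the same reason no library could be left out. The 331 higher and 428 lower genes (4.26% and 5.51% of those measured) moved with the gene minimum, to 1.45% and 3.04% at 200 UMIs and to 18.4% and 15.3% at 1 UMI. Thinning to 500 UMIs left 3.93% higher and 7.50% lower of 5042 measured genes. The shares past the effector gate moved with its construction: 25.8% of GFPmed and 39.7% of GFPlow cells at 2 UMIs, 4.10% and 11.9% at 5 UMIs, 45.7% and 48.8% without thinning, 30.4% and 43.1% at 1000 UMIs, and 23.7% of GFPlow cells with 1000 to 2000 UMIs. GFPmed had the lower share in each. Of the values of named genes under the alternatives, 1221 stayed within counting error of the reported value and 35 changed sign from a ratio past 1.5-fold. The rest moved. Of list medians 364 stayed, 1 that was past 1.5-fold changed sign and 44 moved. Changes of sign in genes or medians within 1.5-fold are not counted or listed as such here. Among them were Ccna2, at 0.44 as reported and -0.47 after thinning, and Eif1a, at -0.48 and 0.15. Of the 67 named genes past 1.5-fold, 34 did not pass it under at least 1 alternative, which besides those that changed sign were Axin2, Cox7b, Cxcr3, Gbp2, Gbp3, Hist1h2ai, Hist1h3d, Icos, Ikzf3, Klrg1, Knop1, Lgals1, Lrrc32, Mcm5, Nfkbid, Osbpl3, Slamf6 and Tnfrsf4. The cause was not tested for these or for those that changed sign, given here as log2 ratios. In cells with 1000 to 2000 UMIs they were the erythroid median at -3.43, Hbb-bs at -3.43, Hbb-bt at -3.46, Hba-a2 at -1.74, Slc4a1 at -1.22, Car2 at -0.67, Cd24a at -1.09, Hist1h2ae at -1.54, Hist1h2ac at -0.53, Hist1h2ag at -0.67, Hist1h2ah at -0.10, Hist1h2ak at -0.034, Top2a at -0.69, Rrm1 at -0.0205, Rrm2 at -3.34 and Jchain at 4.27. Without other-lineage cells they were Slc4a1 at -0.0005, Rrm2 at -0.71 and Jchain at 1.58. After thinning they were Hist1h2ah at -0.10, Hist1h2ac at -0.70, Rrm1 at -0.061, Rrm2 at -0.35 and Itga2b at -1.12. With equal weight per cell they were Hist1h2ac at -0.01 and Rrm2 at -0.37, and without the cell richest in each gene Itga2b at -0.045 and Jchain at 3.86. In cells below the gate that were not other-lineage cells, an alternative chosen after seeing the data, they were Slc4a1 at -0.22, Hist1h2ah at -0.38, Hist1h2ac at -0.43, Hist1h2ak at -0.35, Hist1h2ag at -0.22, Top2a at -0.44, Rrm2 at -1.80 and Jchain at 1.37. Over 14 settings, the reported one among them, Ccr2 ranged from -3.59 to -1.57, Gpr83 from 1.24 to 1.89, Itgae from -1.70 to -1.10 and Klrg1 from -2.24 to -0.16. These ranges leave out the alternative chosen after seeing the data, the cells past the gate and other gate cuts. Below the gate without other-lineage cells Itgae was at -1.05. Below a gate cut of 2 UMIs Gpr83 was at 1.08.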
